A study of Mus musculus with 6 samples.

Results

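Heat shock proteins and the chaperones of the endoplasmic reticulum (ER) are the proteins that fold, refold and hold other proteins in the cell. They were taken here as every gene whose symbol starts with Hspa, Hspb, Hspd, Hspe, Hsph, Hsp90, Dnaja, Dnajb, Dnajc or Pdia, together with Calr, Canx, Xbp1, Atf4, Ddit3, Herpud1, Manf, Sdf2l1 and Creld2. Only probe sets annotated to exactly 1 gene symbol were used, which gave 86 of the 18194 genes so annotated, on 202 of 34958 probe sets. The choice was by name, not by any measured value. The rule's prefixes also take in Hspbp1 and Hspbap1, named for binding to heat shock proteins, and Hspb11, a subunit of the intraflagellar transport machinery. Hsp90ab1 and Dnajc19 were not analysed here. Higher or lower on average refers to the means of 3 mice a diet.

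The arrays held medial prefrontal cortex of 6 male 129S1/SvImJ mice aged 8 to 10 weeks, both hemispheres, taken 2 h after fear extinction. ZnR mice 3, 7 and 11 had received a zinc diet, whose composition the sources used here do not state, and Ctl mice 1, 5 and 9 were the controls. All 6 mice went through extinction, and no mouse without it was analysed here, so the arrays compare diets and not extinction with rest. 129S1/SvImJ is an inbred mouse strain used as a model of impaired fear extinction. RNA (500 ng a mouse) was hybridised to Affymetrix whole-genome mouse expression arrays, 1 mouse an array, and values are log2 signals after GC-corrected robust multi-array averaging (GCRMA). A step of 1 on this scale is a doubling of signal, and levels are compared between mice for 1 probe set, never between probe sets.

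Array medians lay between 4.46 and 4.52, and pairs of arrays correlated at 0.991 to 0.995 across probe sets within a diet and at 0.988 to 0.992 between diets. The arrays of ZnR mouse 3 and Ctl mouse 1 had the lowest mean signal of the 18S ribosomal RNA control probe sets, 8.44 and 9.09, against 10.9 to 12.4 on the other 4 arrays. This low-18S pair holds 1 mouse of each diet, so for some genes the difference is given within it and among the other 4 mice. Among cell-type markers, those of cortical excitatory neurons were present but lower in ZnR mice: 5 of 6 measured passed the test as lower, and their mean was 9.39 to 9.60 in ZnR mice, against 10.35 to 10.49 in Ctl mice. Striatal projection neuron markers were higher, with 2 of 8 past the test and means of 11.29 to 11.51 in ZnR mice, against 10.63 to 11.07 in Ctl mice. In tissue of mixed cells, fewer cells of a type and less RNA per cell cannot be told apart.

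Chaperones of the Hsp70 family bind stretches of unfolded protein in cycles driven by ATP, J-domain proteins (the Dnaj genes) deliver clients to them and trigger ATP hydrolysis, and small heat shock proteins hold unfolded clients without ATP. Cytosolic members are induced by heat shock factor 1 through heat shock elements in their promoters. In the ER, the sensors Ire1, Perk and Atf6 detect unfolded protein, and the transcription factors Xbp1 and Atf6 then raise ER chaperones through the ER stress response element (ERSE), in what is called the unfolded protein response (UPR). In neurons, chaperones also serve the synapse, where Hspa8 with Dnajc6 strips clathrin from vesicles and Hspa8 with Dnajc5 keeps the release machinery folded.

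The promoters that hold the ERSE are shown because they mark which ER chaperones carry the same element. The choice by name took in ER chaperones, which are known to be raised through the ERSE, so its share among them is no independent result. Sequences are from RefSeq (GRCm38.p6), and 72 of the 86 genes had a promoter of 250 bases before to 50 bases after the start. The motif searched was CCAAT, then 9 bases of any kind, then CCACG, on both strands with no mismatch. It was in the promoters of 7 of 72 chaperone genes (9.72%), against 39 of all 32851 promoters (0.119%), which belong to 37 of 27025 genes (0.137%). A match is a description of letters and not a proven site. The 250 bases before the start of 3 genes follow, 5′ to 3′ on the gene's strand, with the matched site in capitals. They are of the ER Hsp70 Hspa5 (BiP), of the calcium-binding chaperone Calr (calreticulin) and of Creld2, an ER protein with disulfide isomerase activity.
Hspa5 promoter, chr2:34771840-34772089, plus strand: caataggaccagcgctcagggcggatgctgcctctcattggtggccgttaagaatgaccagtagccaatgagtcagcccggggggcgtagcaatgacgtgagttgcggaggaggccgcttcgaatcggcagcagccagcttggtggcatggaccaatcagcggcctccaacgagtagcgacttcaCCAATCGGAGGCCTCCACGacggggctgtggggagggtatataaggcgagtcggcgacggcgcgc
Calr promoter, chr8:84846932-84847181, minus strand: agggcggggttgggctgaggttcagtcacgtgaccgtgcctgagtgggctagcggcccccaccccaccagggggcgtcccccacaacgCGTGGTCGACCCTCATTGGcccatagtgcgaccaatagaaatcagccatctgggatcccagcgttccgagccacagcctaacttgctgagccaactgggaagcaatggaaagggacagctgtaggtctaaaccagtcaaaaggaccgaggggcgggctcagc
Creld2 promoter, chr15:88819396-88819645, plus strand: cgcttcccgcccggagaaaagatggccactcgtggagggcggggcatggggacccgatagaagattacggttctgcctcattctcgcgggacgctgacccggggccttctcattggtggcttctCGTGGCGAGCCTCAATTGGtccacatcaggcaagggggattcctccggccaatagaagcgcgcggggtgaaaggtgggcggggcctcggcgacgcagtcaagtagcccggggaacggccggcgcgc

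In Hspa5 the match ran from -65 to -47 relative to the start and read in the gene's direction. In Calr (-162 to -144) and Creld2 (-126 to -108) it lay on the opposite strand, so the capitals show its reverse complement. The other 4 genes with a match are shown with 15 bases on either side: Canx (calnexin), the membrane-bound partner of calreticulin; Dnajc3, an ER J-domain protein that inhibits Perk; Hsp90b1, the ER Hsp90, which had 2 matches; and Pdia6, a disulfide isomerase.
Canx ERSE site, chr11:50325785-50325833, minus strand: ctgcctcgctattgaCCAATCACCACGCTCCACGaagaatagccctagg
Dnajc3 ERSE site, chr14:118937812-118937860, plus strand: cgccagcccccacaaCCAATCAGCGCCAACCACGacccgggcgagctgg
Hsp90b1 ERSE site, chr10:86705623-86705671, minus strand: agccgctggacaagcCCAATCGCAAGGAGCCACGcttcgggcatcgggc
Hsp90b1 ERSE site, chr10:86705518-86705566, minus strand: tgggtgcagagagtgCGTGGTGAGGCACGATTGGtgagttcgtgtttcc
Pdia6 ERSE site, chr12:17266476-17266524, plus strand: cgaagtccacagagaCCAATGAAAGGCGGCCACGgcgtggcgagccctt

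The shorter ERSE-II, searched as ATTGG, 1 base of any kind and CCACG on both strands, was in 12 promoters (0.0365%), among them those of Herpud1, an ER membrane protein of the degradation machinery, and Dnajb11, an ER cochaperone of BiP. A heat shock element was searched as GAA, TTC and GAA with 2 bases of any kind between them, on both strands. It was in 198 promoters (0.603%), which belong to 179 of 27025 genes (0.662%). Of the 72 chaperone genes, 4 had it (5.56%): Dnajb6, Hspd1, Hspe1 and Hsph1. Heat shock genes were taken by name too, so this share is no independent result. Hspd1 and Hspe1, the subunits of the mitochondrial chaperonin, are neighbours on chromosome 1 transcribed away from each other, and the same bases carry 2 overlapping matches for both genes. Of these, 1 is shown from each gene's strand, beside the site of Herpud1.
Herpud1 ERSE-II site, chr8:94386362-94386402, plus strand: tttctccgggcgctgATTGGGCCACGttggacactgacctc
Hspd1 HSE site, chr1:55088044-55088086, minus strand: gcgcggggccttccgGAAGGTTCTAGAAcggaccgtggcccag
Hspe1 HSE site, chr1:55088044-55088086, plus strand: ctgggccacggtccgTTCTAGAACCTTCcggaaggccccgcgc

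By their probe sets of highest mean, all 7 ERSE genes had higher means in ZnR mice, against 57.6% of all genes measured. The differences were 0.03 to 0.52 on the log2 scale with a median of 0.18, and none passed the test. Hspa5, Dnajc3 and Pdia6 each had another probe set that was lower, at -0.03, -0.02 and -0.21. The Canx and Dnajc3 probe sets of highest mean changed direction between settings of the analysis. Among the 6 other measured genes with an ERSE, 4 were higher on average, the median difference was 0.11 and none passed. Of the 4 chaperone genes with the heat shock element, 3 were higher on average, with a median difference of 0.10 and a range of -0.09 to 0.20. Of the 50 other measured genes with that element, 34 were higher on average, against 57.6% of all genes measured. The test was passed by 3, against 1.92% of all genes: Lingo3 as higher (0.63), and Tbr1 and Coro2a as lower (-1.02 and -0.62).

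None of the chaperone genes differed between diets past an adjusted p of 0.05. Of the 86 genes, 70 had a probe set above the filter (log2 above 4 on at least 3 of the 6 arrays), on 160 probe sets, and limma called 0 of these 160 with p-values adjusted (Benjamini-Hochberg) across the 25381 kept probe sets. Among all 25381, 373 (1.47%) were called, 117 higher (0.461%) and 256 lower (1.01%) in ZnR mice. Taking 1 probe set a gene, 1.92% of all measured genes were called and none of the chaperone genes. At an unadjusted p under 0.05 there were 22 of the 160 (13.8%), against 17.0% of all. Of these, 15 were higher in ZnR mice (9.38%, against 9.06% of all) and 7 lower (4.38%, against 7.90%). The values of ZnR and Ctl mice did not overlap for 46 of the 160 (28.8%), against 23.7% of all. Of these, 34 were higher in ZnR mice (21.3%, against 13.1% of all) and 12 lower (against 10.6%). On average 92 of the 160 were higher in ZnR mice (57.5%), against 53.6% of all, and 4 (2.5%) differed by at least 0.5, against 4.92% of all. The median difference of 0.017 was near that of all probe sets, 0.015.

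With the probe set of highest mean standing for each gene, 48 of 70 genes were higher on average in ZnR mice (68.6%), against 57.6% of all genes measured. The diets did not overlap for 26 of the 70 (37.1%), against 27.7% of all genes: 19 higher (27.1%, against 16.5%) and 7 lower (against 11.1%). An unadjusted p under 0.05 was reached by 11 (15.7%), against 18.8% of all genes. The 95% interval of the difference, unadjusted, lay within 0.5 of zero on the log2 scale for 59 of the 70 genes and within 1 for 69. The exception was Hspb8. Differences of under 0.25 were seen for 60 of the 70. The residual SD had a median of 0.118 over the chaperone probe sets and 0.141 over all. The colour map of single mice sets out the named genes by role.

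**Figure D1:**
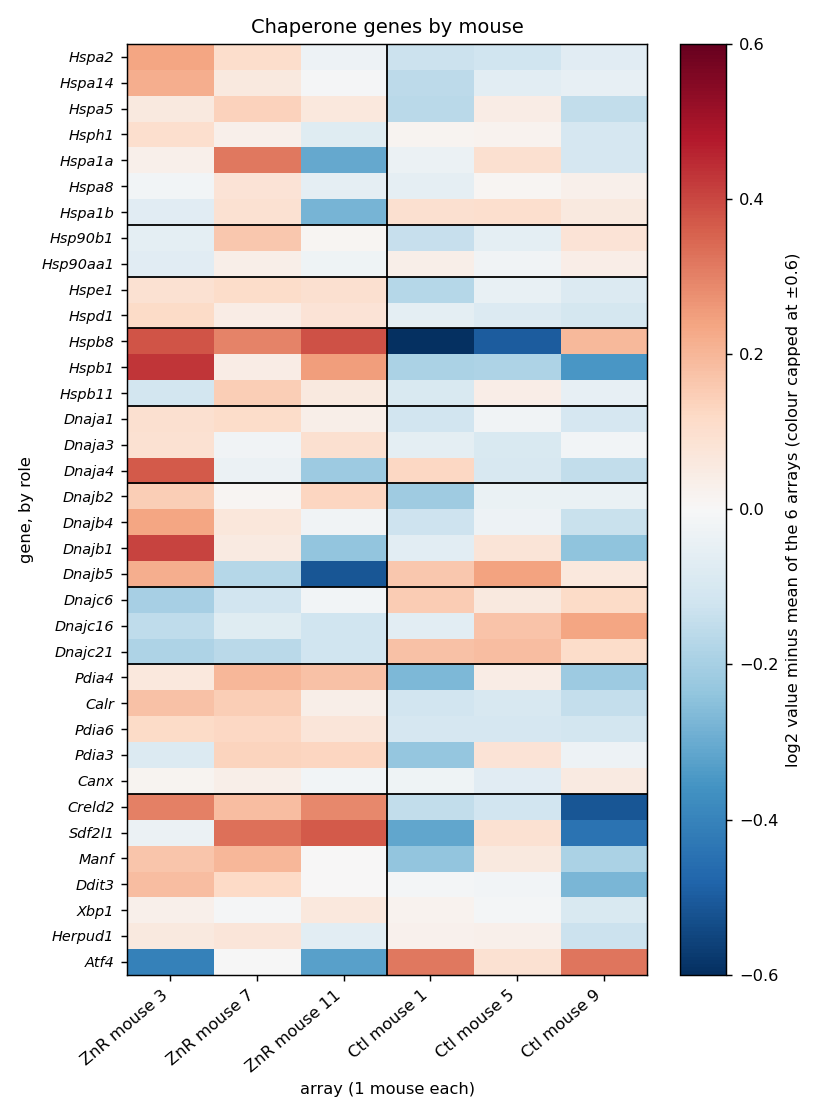
Log2 value of 36 named chaperone genes in each mouse minus the gene's mean over the 6 arrays, 1 probe set a gene, with ZnR mice in the left 3 columns, Ctl mice in the right 3 and roles separated by lines. Creld2, Hspb1 and Pdia6 were higher in all ZnR mice than in all Ctl mice, and Atf4 and Dnajc21 were lower.

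The Hsp70 family showed small differences. Of its 14 genes, 12 were measured. By their probe sets of highest mean, 10 were higher on average in ZnR mice and the median difference was 0.07. Over all genes measured, 57.6% were higher on average. Over the family's 36 tested probe sets, 21 were higher and 15 lower on average, with a median of 0.01. Hspa8, the constitutive cytosolic Hsp70, gave 13.73, 13.82 and 13.69 in ZnR mice 3, 7 and 11, against 13.69, 13.76 and 13.77 in Ctl mice 1, 5 and 9. The groups overlapped, with a difference of 0.01 ± 0.08 (SE, n = 3 each; limma adjusted p = 0.981). The heat-inducible Hspa1a averaged 6.23 ± 0.31 in ZnR mice and 6.20 ± 0.10 in Ctl mice (SD, n = 3 each), and Hspa1b averaged 8.55 ± 0.18 in ZnR mice and 8.72 ± 0.03 in Ctl mice. These genes are near-identical copies, so probe sets of one can bind transcripts of the other.

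Hspa5, the ER Hsp70 and main sensor-binding chaperone of the UPR, gave 12.40, 12.48 and 12.40 in ZnR mice, against 12.17, 12.38 and 12.19 in Ctl mice. Every ZnR mouse lay above every Ctl mouse, by as little as the gap between 12.40 and 12.38, and the difference was 0.18 ± 0.09 (limma adjusted p = 0.382; 95% interval -0.04 to 0.39). A second Hspa5 probe set gave 11.65, 11.76 and 11.71 in ZnR mice, against 11.42, 11.61 and 11.53 in Ctl mice, a difference of 0.19. Probe set 1447824_x_at gave -0.03 with overlapping groups. Hspa2, an Hsp70 best known from the testis, was higher by 0.21 ± 0.09, Hspa14, a ribosome-associated member, by 0.18 ± 0.09, and Hsph1, a nucleotide exchange factor of Hsp70, by 0.04 ± 0.09. None of these 3 passed the test. Hspa2 differed by 0.37 within the low-18S pair and by 0.13 among the other 4 mice, and Hspa14 by 0.37 and 0.08.

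Hspa12a, a distant relative of Hsp70, had the lowest adjusted p of the family, on a single probe set. Probe set 1436961_at gave 7.24, 7.36 and 7.43 in ZnR mice, against 7.73, 7.91 and 7.76 in Ctl mice. The groups did not overlap, and the difference was -0.46 ± 0.09 (limma adjusted p = 0.0636). Its difference was -0.49 within the low-18S pair and -0.44 among the other 4 mice. The gene's probe set of highest mean, 1434051_s_at, differed by -0.10 ± 0.08, also without overlap.

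Hspa13, an Hsp70-like protein of the ER and microsomes, had probe sets that ran in opposite directions. Probe set 1453172_at gave 7.35, 7.27 and 7.29 in ZnR mice, against 7.58, 7.48 and 7.76 in Ctl mice. Probe set 1429502_at gave 7.45, 7.73 and 7.78 in ZnR mice, against 7.43, 7.39 and 7.34 in Ctl mice. Neither pair of groups overlapped, yet the differences were -0.30 ± 0.10 and 0.26 ± 0.11 (limma adjusted p = 0.170 and 0.274), and the probe set of highest mean gave 0.06 ± 0.10. Over all chaperones, 50 genes had several kept probe sets, of which 28 agreed in direction and 22 did not.

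Another Hspa8 probe set, 1431182_at, was unlike the rest of the family. It gave 6.92 in ZnR mouse 3 and 7.05 in Ctl mouse 1, the low-18S pair, against 5.52 and 5.04 in ZnR mice 7 and 11 and 5.54 and 5.11 in Ctl mice 5 and 9. The pair exceeded the other 4 arrays by 1.68, while the diets differed by -0.07 ± 0.60. The 3 other Hspa8 probe sets did not set the pair apart, as the plot of Hspa8 by array shows. A difference of at least 1 between the pair and the others was found for this 1 chaperone probe set and for 30 (0.118%) of all. A difference of at least 0.5 was found for 3 (1.88%), against 2.56% of all. The pair lay above or below all other arrays for 25 of 160 (15.6%), against 17.5% of all.

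**Figure D2:**
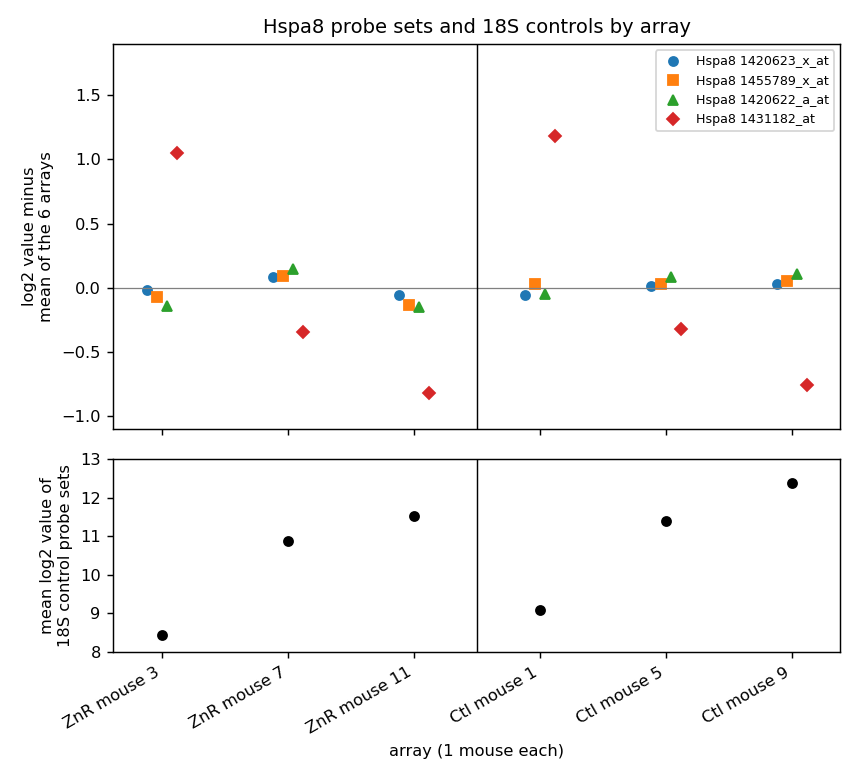
Upper panel, log2 value of the 4 Hspa8 probe sets on each array minus the probe set's mean; lower panel, mean log2 signal of the 18S control probe sets, with ZnR arrays left of Ctl arrays. Probe set 1431182_at is high on the arrays of ZnR mouse 3 and Ctl mouse 1, which have the lowest 18S signal, and the other 3 stay within 0.25 of their mean on all arrays.

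Hsp90 genes differed by less than 0.25. Hsp90aa1, the stress-inducible cytosolic Hsp90, gave 13.71, 13.81 and 13.75 in ZnR mice, against 13.81, 13.75 and 13.81 in Ctl mice, with overlap and a difference of -0.04 ± 0.08. Hsp90b1, the ER form also called Grp94, differed by 0.08 ± 0.10, with limma adjusted p of 0.853 for Hsp90aa1 and 0.748 for Hsp90b1.

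All 3 probe sets of the mitochondrial chaperonin, 2 of them of Hspe1, were higher in ZnR mice without overlap, as were 13.1% of all probe sets. Hspe1, its lid, gave 10.58, 10.60 and 10.59 in ZnR mice, against 10.32, 10.45 and 10.41 in Ctl mice. Hspd1, its barrel, gave 11.90, 11.83 and 11.87 in ZnR mice, against 11.73, 11.70 and 11.68 in Ctl mice. The differences were small, 0.20 ± 0.08 for Hspe1 and 0.16 ± 0.08 for Hspd1 (limma adjusted p = 0.265 and 0.336). A second Hspe1 probe set gave 7.96, 8.08 and 7.78 in ZnR mice, against 7.62, 7.71 and 7.54 in Ctl mice, a difference of 0.32 ± 0.10. The mean of Hspd1 and Hspe1 differed by 0.22 within the low-18S pair and by 0.16 among the other 4 mice. Hspa9, the mitochondrial Hsp70 that works with them, differed by 0.07 ± 0.08 with overlap.

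The small heat shock proteins Hspb1 and Hspb8 held the highest positive differences of all chaperones. Of the 10 genes with an Hspb symbol, not all of which encode small heat shock proteins, 5 were measured, on only 7 of 19 probe sets. All 5 measured genes were higher on average in ZnR mice, 3 of them by under 0.1 (Hspb6, Hspb11 and Hspbp1). Hspb1, known as Hsp25 in mice and Hsp27 in humans, gave 6.52, 6.11 and 6.47 on probe set 1425964_x_at in ZnR mice, against 5.68, 5.81 and 5.55 in Ctl mice. The lowest ZnR mouse was above the highest Ctl mouse, and the difference of 0.69 ± 0.13 is a 1.61-fold signal (limma adjusted p = 0.0542). The other Hspb1 probe set, of higher mean, gave 6.52, 6.13 and 6.34 in ZnR mice, against 5.90, 5.90 and 5.74 in Ctl mice. It also showed no overlap, with a difference of 0.48 ± 0.12 (limma adjusted p = 0.0965). When the gene was fitted on the mean of its probe sets, with all other genes treated likewise, Hspb1 differed by 0.59 (limma adjusted p = 0.0323).

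Hspb8, which forms a complex with the cochaperone Bag3 that hands clients to autophagy, gave 5.05, 4.97 and 5.05 on probe set 1417013_at in ZnR mice, against 3.92, 4.17 and 4.86 in Ctl mice. ZnR mice lay close together, and Ctl mouse 9 was near them while Ctl mice 1 and 5 were lower. The difference was 0.70 ± 0.22 (limma adjusted p = 0.163). Without Ctl mouse 9 it was 0.98 (limma adjusted p = 0.0348), the only chaperone call made by leaving out a mouse, and without the low-18S pair it was 0.49. Probe set 1417014_at gave 4.05, 4.14 and 4.23 in ZnR mice, against 3.42, 3.71 and 3.70 in Ctl mice (0.53 ± 0.11; limma adjusted p = 0.0625). It passed the filter through ZnR arrays alone, so its difference is no independent support. Bag3 itself gave 6.53, 6.41 and 6.20 in ZnR mice, against 5.61, 5.96 and 6.11 in Ctl mice, a difference of 0.49 ± 0.15 (limma adjusted p = 0.159). Cryab, the lens and glial small heat shock protein, differed by 0.32 ± 0.15 with overlap (limma adjusted p = 0.345).

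Markers of several non-neuronal cell types had higher means in ZnR mice. Of 9 ventricle-lining markers, 7 were measured, 2 passed the test as higher and the mean was 5.66 to 5.82 in ZnR mice, against 4.10 to 5.09 in Ctl mice, with Kcne2 and Folr1 below the filter. Of 7 leptomeningeal fibroblast markers, 4 were measured and none passed, with Col1a1, Lum and Slc6a13 below the filter. The mean of the 4 overlapped between diets, at 8.30 to 9.34 in ZnR mice, against 7.82 to 8.51 in Ctl mice. Astrocyte markers had 1 of 8 past the test as higher and means of 11.04 to 11.10 in ZnR mice, against 10.78 to 10.89 in Ctl mice. Endothelial markers, 4 higher and 2 lower on average, had 0 of 6 past the test. Their means overlapped, at 6.11 to 6.34 in ZnR mice, against 6.06 to 6.19 in Ctl mice. Mural cell markers, 4 higher and 1 lower on average (Kcnj8, at -0.36), had 0 of 5 past the test. Their means also overlapped, at 6.99 to 7.25 in ZnR mice, against 6.83 to 7.05 in Ctl mice. The part of these cells in the Hspb1 and Hspb8 values was not tested.

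**Figure D3:**
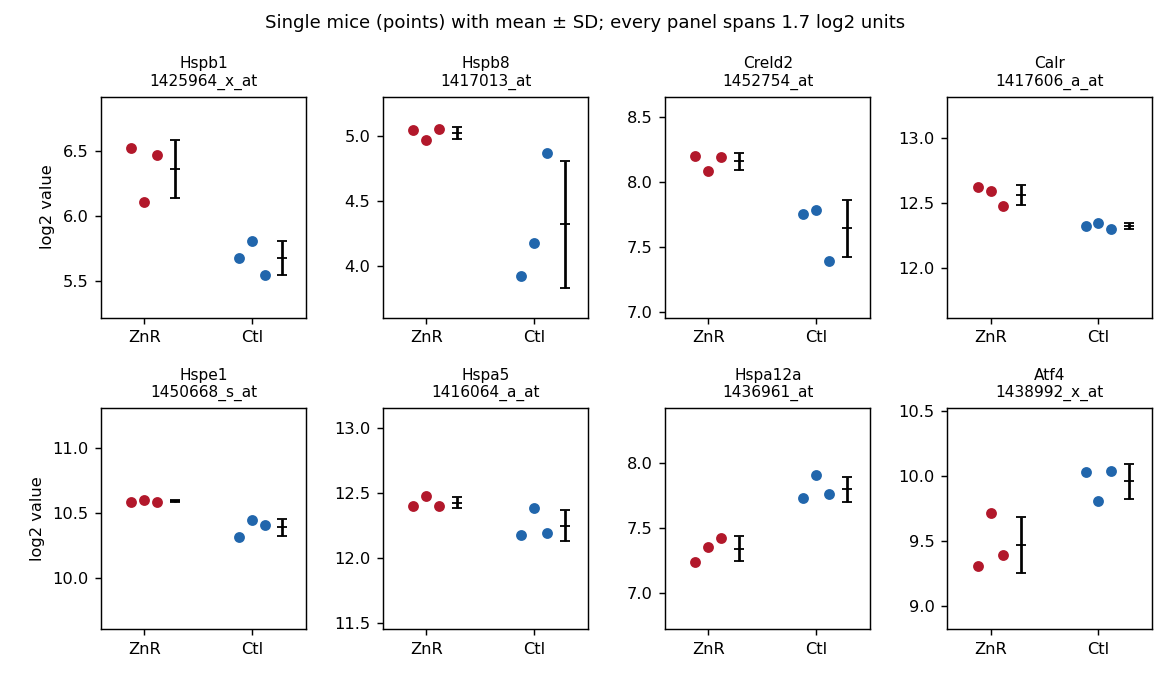
Log2 values of 8 chaperone probe sets in single mice (points, ZnR red and left, Ctl blue and right) with mean and SD (n = 3 each), every panel on an axis of equal length. No panel has overlapping groups, Hspb8 spreads most among Ctl mice, and none of the 8 passed an adjusted p of 0.05.

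Dnaja genes, which encode general Hsp70 cochaperones, were higher on average in 4 of 4 by their probe sets of highest mean, by 0.04 to 0.16. Over their 12 tested probe sets, 10 were higher and 2 lower on average. Dnaja1 gave 12.54, 12.55 and 12.48 in ZnR mice, against 12.33, 12.43 and 12.35 in Ctl mice, without overlap (0.16 ± 0.08; limma adjusted p = 0.368). Dnaja1 probe set 1459835_s_at ran the other way at -0.12 ± 0.15. The widest difference of the class was also lower in ZnR mice: Dnaja2 probe set 1457233_at gave 5.35, 5.68 and 5.43 in ZnR mice, against 5.60, 5.82 and 5.94 in Ctl mice, with overlap (-0.30 ± 0.13; limma adjusted p = 0.294).

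Of 13 Dnajb genes, 9 were measured, with 6 higher and 3 lower on average in ZnR mice by their probe sets of highest mean. Over their 17 tested probe sets, 8 were higher and 9 lower on average, with a median of -0.09. Dnajb1, the heat-inducible Hsp40, gave 10.81, 10.46 and 10.17 in ZnR mice, against 10.34, 10.48 and 10.16 in Ctl mice. ZnR mouse 3 was above every other mouse and the rest overlapped, so the difference of 0.15 ± 0.17 was -0.02 without that mouse. Dnajb4, a related Hsp40, gave 9.62, 9.52 and 9.44 on probe set 1431734_a_at in ZnR mice, against 9.24, 9.26 and 9.20 in Ctl mice, without overlap (0.29 ± 0.09; limma adjusted p = 0.141). Its probe set of higher mean differed by 0.19 ± 0.10, also without overlap. Dnajb2, a J-domain protein enriched in neurons, differed by 0.19 ± 0.09. Within the low-18S pair Dnajb2 differed by 0.36, and among the other 4 mice by 0.11. Those values were also 0.36 and 0.11 for the Dnajb4 probe set of higher mean.

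Dnajb5 was lower on average on all 3 of its probe sets, by 0.24 to 0.36, with wide spread, though 1421962_at turned to 0.040 with a mouse left out. Its probe set of highest mean gave 10.44, 10.05 and 9.71 in ZnR mice, against 10.39, 10.47 and 10.29 in Ctl mice. ZnR mouse 3 lay within the Ctl range and the other two below it, and the difference was -0.31 ± 0.18 (limma adjusted p = 0.422). Between ZnR mouse 3 and Ctl mouse 1 it was 0.06, and among the other 4 mice it was -0.50. Dnajb6, a suppressor of aggregation, was lower on all 3 of its probe sets by 0.09 to 0.13, with overlap. Dnajb9 and Dnajb11, both of the ER, differed by 0.04 ± 0.08 and 0.14 ± 0.09.

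Dnajc genes, the most varied class, had more genes lower than higher: of 23 measured genes of 27, 8 were higher and 15 lower on average in ZnR mice, with a median of -0.03. Dnajc21, a ribosome biogenesis factor, gave 8.28, 8.31 and 8.35 in ZnR mice, against 8.65, 8.66 and 8.58 in Ctl mice. Both groups were tight and apart, with a difference of -0.31 ± 0.08 (limma adjusted p = 0.101). Its other probe sets gave -0.20 ± 0.13 and -0.17 ± 0.11 with overlap.

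Dnajc6 (auxilin), which uncoats synaptic vesicles with Hspa8, gave 12.25, 12.34 and 12.44 in ZnR mice, against 12.61, 12.51 and 12.57 in Ctl mice, a difference of -0.22 ± 0.09 without overlap (limma adjusted p = 0.252). Its probe set 1431215_at went the other way, 0.10 ± 0.08, and 2 others were lower on average. Dnajc5 (cysteine string protein of synaptic vesicles) gave 11.82, 11.77 and 11.82 in ZnR mice, against 11.87, 11.88 and 11.93 in Ctl mice, a difference of -0.09 ± 0.08 without overlap. Of its 5 probe sets, 4 were lower on average. Dnajc16 differed by -0.23 ± 0.10 (limma adjusted p = 0.306), and probe set 1445337_at of Dnajc13, an endosomal J-domain protein, by -0.34 ± 0.10 (limma adjusted p = 0.160), while the other Dnajc13 probe set gave 0.00 ± 0.08. Dnajc5 and Dnajc6 work in neurons, whose excitatory markers were lower in ZnR mice as given above; the part of that shift in these values was not tested. Of 7 interneuron markers, 3 were higher on average in ZnR mice: Gad1 by 0.12, Gad2 by 0.39 and Slc32a1 by 0.56. The other 4, Pvalb, Sst, Vip and Npy, were lower. Only 1 of 7 passed the test, Vip, as lower. Means over the 7 markers overlapped, at 10.59 to 10.69 in ZnR mice, against 10.65 to 10.90 in Ctl mice.

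Dnajc3 belongs to the ER group by function. Probe set 1419162_s_at gave 7.15, 7.15 and 7.19 in ZnR mice, against 6.82, 6.93 and 6.75 in Ctl mice, without overlap (0.33 ± 0.08; limma adjusted p = 0.105). Its probe set of highest mean gave 0.04 ± 0.11 with overlap, and of its 5 probe sets 4 were higher on average. Dnajc10, an ER reductase with a J domain, gave -0.15 ± 0.08 on its probe set of highest mean and 0.06 ± 0.09 on the next.

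**Figure D4:**
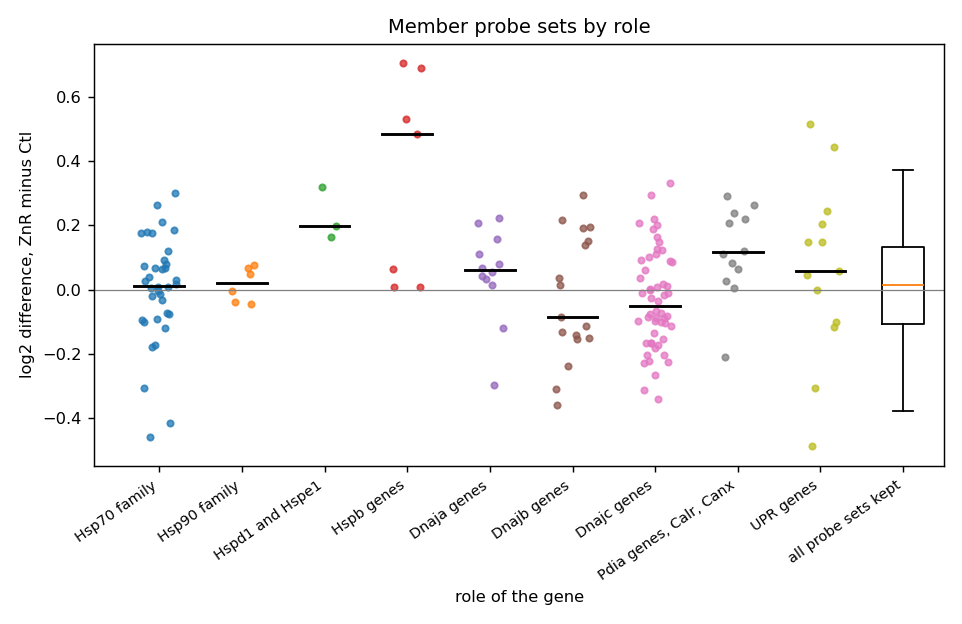
Log2 difference, ZnR minus Ctl, of each kept chaperone probe set (points) by role, with the role's median as a bar, beside a box of all 25381 probe sets (box, quartiles; whiskers, the 5th and 95th percentiles). Points of Hspd1 and Hspe1 and of the Hspb genes all lie above 0, and most Dnajc points lie below it.

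The disulfide isomerases and the lectin chaperones calreticulin and calnexin were higher on average in 6 of 6 measured genes, with a median difference of 0.22; Pdia2 was below the filter. Calr gave 12.62, 12.59 and 12.47 in ZnR mice, against 12.32, 12.34 and 12.30 in Ctl mice. All ZnR mice lay above all Ctl mice, by 0.24 ± 0.08 or 1.18-fold (limma adjusted p = 0.197). Its other 2 probe sets showed the same, with differences of 0.22 ± 0.08 and 0.11 ± 0.08 and no overlap. Without the low-18S pair, the Calr difference was 0.21.

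Pdia6, whose promoter holds the ERSE, gave 9.57, 9.58 and 9.53 in ZnR mice, against 9.36, 9.36 and 9.35 in Ctl mice. Both groups were tight and the difference was 0.21 ± 0.08 (limma adjusted p = 0.223), while its second probe set, 1430983_at, gave -0.21 ± 0.18 with overlap. Pdia4 gave 7.59, 7.73 and 7.71 in ZnR mice, against 7.26, 7.58 and 7.31 in Ctl mice, again apart (0.29 ± 0.11; limma adjusted p = 0.225). Pdia5 differed by 0.26 ± 0.13, Pdia3 by 0.12 ± 0.11 and Canx by 0.03 ± 0.08, all with overlap. The mean of the 6 genes differed by 0.21 within the low-18S pair and by 0.18 among the other 4 mice.

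UPR regulators and targets were mixed: 6 of 7 genes were higher on average in ZnR mice and Atf4 was lower. Over their 13 tested probe sets, 8 were higher and 5 lower on average. Creld2 gave 8.21, 8.09 and 8.20 in ZnR mice, against 7.76, 7.79 and 7.39 in Ctl mice. The groups did not overlap, and the difference was 0.52 ± 0.12 or 1.43-fold (limma adjusted p = 0.0906), with 0.45 within the low-18S pair and 0.55 among the other 4 mice. Sdf2l1, a partner of BiP and Dnajb11, gave 7.08, 7.45 and 7.49 in ZnR mice, against 6.81, 7.21 and 6.67 in Ctl mice. ZnR mouse 3 lay below Ctl mouse 5, and the difference was 0.44 ± 0.17 (limma adjusted p = 0.240). Manf, a secreted ER stress factor, gave 10.37, 10.40 and 10.21 in ZnR mice, against 9.96, 10.26 and 10.01 in Ctl mice, a difference of 0.25 ± 0.11 with overlap (limma adjusted p = 0.311).

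The transcription factors of the response gave mixed values. Atf4, translated when Perk is active, gave 9.31, 9.71 and 9.39 on probe set 1438992_x_at in ZnR mice, against 10.03, 9.81 and 10.04 in Ctl mice. Every ZnR mouse was below every Ctl mouse, by -0.49 ± 0.13 (limma adjusted p = 0.115), and the other Atf4 probe set gave -0.31 ± 0.14 with overlap. Ddit3 (CHOP), a target of Atf4, gave 8.10, 8.03 and 7.91 in ZnR mice, against 7.90, 7.89 and 7.63 in Ctl mice, a difference of 0.20 ± 0.11 without overlap (limma adjusted p = 0.380). Its other probe set, 1443897_at, ran the other way with overlap, at -0.10 ± 0.28. Xbp1 differed by 0.06 ± 0.08 with overlap on its probe set of highest mean. Of its 3 others, 1420011_s_at was higher by 0.15 ± 0.08 without overlap, 1420886_a_at by 0.15 ± 0.10 with overlap, and 1420012_at differed by -0.11 ± 0.12 with overlap. Herpud1 differed by 0.05 ± 0.09 and, on its other probe set, by less than 0.01, both with overlap. Splicing of Xbp1 RNA and translation of Atf4, the steps by which the response acts on them, were not measured.

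**Figure D5:**
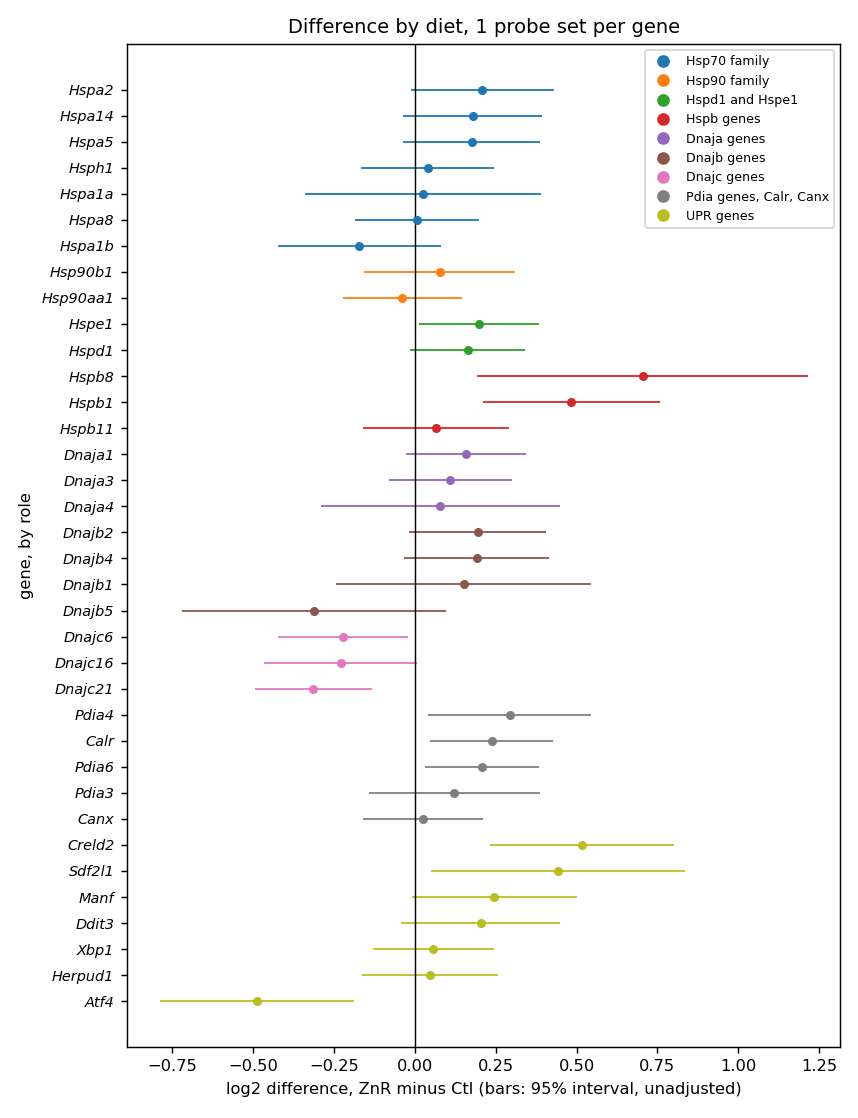
Log2 difference, ZnR minus Ctl, of 36 named chaperone genes with unadjusted 95% intervals (n = 3 each), coloured by role. Hspb8, Creld2, Hspb1 and Sdf2l1 lie farthest to the right and Atf4 farthest to the left, and most other intervals cross 0.

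The wider folding pathway gave no call either, against 1.92% of all genes measured. Over all genes measured, 57.6% were higher on average in ZnR mice and 18.8% had an unadjusted p under 0.05. Of 27 measured heat shock factors and cochaperones outside the chaperone list, 19 were higher and 8 lower on average in ZnR mice, and 0 passed the test, with 4 at an unadjusted p under 0.05. Serpinh1 (Hsp47), the ER chaperone of collagen, gave 7.27, 7.48 and 7.32 in ZnR mice, against 6.09, 6.65 and 6.79 in Ctl mice, a difference of 0.85 ± 0.18 without overlap (limma adjusted p = 0.0669). Fkbp4, an Hsp90 cochaperone of steroid receptors, differed by 0.27 ± 0.08 (limma adjusted p = 0.167). Of 8 subunits of the cytosolic chaperonin CCT, 7 were higher on average, and none had an unadjusted p under 0.05. Of 31 other ER folding and degradation genes, 23 were higher and 8 lower on average, with 0 past the test and 2 at an unadjusted p under 0.05. P4hb, the founding disulfide isomerase, differed by 0.29 ± 0.11 (limma adjusted p = 0.231). Of 17 UPR sensors and outputs, 8 were higher and 9 lower on average, with 0 past the test and 4 at an unadjusted p under 0.05: Creb3l2 and Mbtps1 were higher by 0.46 and 0.33, and Atf6 and Cebpb lower, at -0.31 and -0.29. The remaining sensors, Ern1 (Ire1) and Eif2ak3 (Perk), differed by -0.12 ± 0.11 and -0.07 ± 0.12, with overlap.

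Oligodendrocyte, oligodendrocyte precursor and microglia markers had 0 of 7, 0 of 5 and 0 of 7 past the test. The oligodendrocyte means overlapped, at 10.48 to 11.22 in ZnR mice, against 10.42 to 10.61 in Ctl mice. Precursor means were 8.08 to 8.23 in ZnR mice, against 7.70 to 7.88 in Ctl mice. Microglia markers, 1 higher and 6 lower on average, had overlapping means of 7.44 to 7.62 in ZnR mice, against 7.54 to 7.65 in Ctl mice. No erythroid marker was above the filter. Their part in the chaperone values was not tested.

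The 16 chaperone genes with no kept probe set had no array value above 4.04. They were Dnajb3, Dnajb7, Dnajb8, Dnajb13, Dnajc22, Dnajc25, Dnajc5b, Dnajc5g, Hspa12b, Hspa1l, Hspb2, Hspb3, Hspb7, Hspb9, Hspbap1 and Pdia2. Several of these are known from other tissues, among them Dnajb13 of motile cilia and sperm, Hspb3 and Hspb7 of muscle and heart, and Pdia2 of pancreas.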

How the data were processed

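Medial prefrontal cortex RNA of 3 ZnR and 3 Ctl mice, 1 mouse an array, was measured on Affymetrix whole-genome mouse expression arrays. The authors deposited log2 values for 45101 probe sets; GCRMA 2.28.0 and R 2.15.1 are named in the submitters' processing notes. Groups were taken from the labels. No scanner files were used here. The number of arrays limits the precision. Genes were named from the platform annotation, matched by Entrez ID to RefSeq for all 202 chaperone probe sets. After leaving out 64 controls, probe sets above 4 on at least 3 of 6 arrays were kept (25381). Diets were compared in limma 3.58.1 (R 4.3.3) with moderated two-sided tests and Benjamini-Hochberg adjustment over all kept probe sets, and a call is an adjusted p under 0.05. A gene is represented by its kept probe set of highest mean. SEs and intervals come from the fit, which was tested on simulated data. There it called 0 of 50 log2 changes of 0.25, 10 of 50 of 0.5, 35 of 50 of 1 and 48 of 50 of 2. A small difference without a call can therefore be real. The marker lists' means are of log2 values over measured markers. Named genes were those of each role with the 3 smallest p and 24 fixed by name; other genes and single probe sets, such as Hspa12a, Hspa13, Dnajc3, Dnajc13 and the pathway genes, were named after their values were seen. Members and lists were chosen with earlier results of these data known. Alternatives were other filters, quantile normalization, variance priors, array weights, the low-18S pair left out or fitted as a block, and each mouse left out. The labels number mice and do not state litters or cages.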

Additional observations from a re-analysis of the deposited data

How the results depend on the processing

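With 3 mice a diet, a call depends on the variance estimate. Over all 25381 kept probe sets, 373 calls became 916 with a mean-variance trend, 904 with trend and robust estimation and 2003 with array weights. They were 1 without the low-18S pair and 1 to 109 when a mouse was left out (1 without Ctl mouse 5). The chaperone counts that follow, from 160 probe sets kept by the main filter, are to be read beside these. Chaperone probe sets called higher, 0 as reported, were 3 with the trend (Calr, Hspb1 and Hspb8 1417014_at), 2 with trend and robust estimation (Calr, Hspb1), 4 with array weights (2 of Hspb1, Hspb8 1417013_at and Hspb8 1417014_at), 1 with values above 6 (Hspb1), 1 with a block for the low-18S pair (Hspb8 1417014_at) and 0 to 1 when a mouse was left out (Hspb8 1417013_at). Hspb8 1417014_at passed the filter through ZnR arrays alone, so its calls are no independent support. Those called lower, also 0, were 2 with the trend and 2 with trend and robust estimation (Atf4, Hspa12a), 3 with array weights (Dnajc13, Dnajc21, Hspa12a), 1 with values above 6 (Hspa12a) and 0 when a mouse was left out. No filter, renewed quantile normalization, 1 probe set a gene, and a mean above 4 (chosen after seeing the data) gave 0 in both directions. With every gene fitted on the mean of its probe sets, Creld2 passed limma's test (adjusted p = 0.0466). Creld2 has only 1 probe set, so its values and its difference of 0.52 were those of the main fit. The median difference of 0.017 ranged from 0.0122 to 0.0471 with a mouse left out; it was 0.0471 without ZnR mouse 11 and 0.0398 without Ctl mouse 5.

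Of all 160 chaperone probe sets, 107 kept their direction in the 14 settings run on single probe sets and 53 did not. Among probe sets the text names, these 53 include Hspa5 1447824_x_at (-0.16 to 0.31), Dnaja1 1459835_s_at (-0.22 to 0.017), Dnajb5 1421962_at (-0.48 to 0.040), Ddit3 1443897_at (-0.42 to 0.10), and the probe sets of highest mean of Dnajc3 (-0.065 to 0.13), Dnajb9 (-0.026 to 0.074) and Hspb6 (-0.20 to 0.14). Of the 45 followed one by one (36 genes named by rule, by their probe sets of highest mean, and 9 further probe sets), 9 turned, all with differences under 0.25. With array weights the difference was -0.10 for Hspa1a, -0.014 for Hspa8, -0.0031 for Hsph1, -0.0061 for Herpud1 and 0.15 for Hspa8 probe set 1431182_at. Without the low-18S pair it was -0.0085 for Hspa8, -0.0042 for Dnaja4 and -0.0086 for Dnajb1. On the mean of a gene's probe sets Hspa8 gave -0.060 and Pdia6 -0.0017. With a mouse left out, Hspa1a ranged from -0.13 to 0.19, Hspa8 from -0.032 to 0.035, Hsph1 from -0.0022 to 0.087, Dnaja4 from -0.086 to 0.21, Dnajb1 from -0.015 to 0.31, Canx from -0.0014 to 0.058, Herpud1 from -0.0069 to 0.090 and Hspa8 probe set 1431182_at from -0.62 to 0.50. The cause was not tested. No paired analysis was possible because the mouse numbers differ between the diets. Probe sets near the filter, such as those of Hspb8, rest on low signal.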

Other observations

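Below the filter, 42 chaperone probe sets had values too low to be compared with confidence. Fitted without a filter, none of the 42 passed limma's test, and 4 had an unadjusted p under 0.05. In the main fit, 17.0% of the kept probe sets reached that p. The diets did not overlap for 7 of the 42, against 23.7% of the kept probe sets. The small heat shock protein Hspb3, known from muscle, gave 3.38, 3.34 and 3.42 in ZnR mice, against 3.76, 3.85 and 3.96 in Ctl mice, without overlap (-0.47 ± 0.09; limma adjusted p = 0.0574), opposite in direction to Hspb1 and Hspb8. Dnajb13, a J-domain protein of motile cilia, gave 3.87, 3.96 and 3.89 in ZnR mice, against 3.47, 3.76 and 3.72 in Ctl mice, also without overlap (0.25 ± 0.10; limma adjusted p = 0.351). These were chosen after their values were seen. Their mean signals exceeded those of 38.5% and 41.1% of all probe sets.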
